A study of Mus musculus with 8 samples.

Results

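The levels of 9 genes of the CXC chemokine family were followed through RNA-seq of mouse immature myeloid cells (IMCs): Cxcl1, Cxcl2, Cxcl3, Cxcl9, Cxcl10, Cxcl14, Cxcl16, Pf4 and Ppbp. They were taken by gene symbol from a list drawn up with earlier results of these data known, and make up 9 of the 24062 genes in the count table. IMCs were grown from filtered bone marrow of C57BL/6 mice aged 2 months, kept for 3 days in 40 ng/mL M-CSF, the growth factor of the monocyte and macrophage lineage. The 4 groups had 2 libraries each. PARP1 WT cells came from PARP1 flox/flox mice, and PARP1CKO cells from PARP1 flox/flox mice that also carried lysozyme-Cre. PARP2 WT cells came from PARP2 flox/flox mice, and PARP2CKO cells from PARP2 flox/flox mice with lysozyme-Cre. The former pair is called the PARP1 line here and the latter the PARP2 line. Both WT groups carried unrecombined floxed alleles without Cre. Lysozyme-Cre deletes in the myeloid lineage, so other cells left in the culture keep the gene. PARP1 and PARP2 are enzymes that add ADP-ribose chains to proteins in response to DNA breaks. The study asked how deletion of either enzyme in myeloid cells changes their gene expression.

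CXC chemokines are small secreted proteins, named for a pair of cysteines with another residue between them, that direct leukocyte migration through G protein-coupled receptors. Cxcl1, Cxcl2, Cxcl3 and processed Ppbp carry the residues Glu-Leu-Arg (ELR) before the first cysteine and draw neutrophils through the receptor Cxcr2. Macrophages switch on Cxcl1, Cxcl2 and Cxcl3 through NF-kB after microbial or cytokine signals. Cxcl9 and Cxcl10 are induced by interferons and draw T and NK cells through Cxcr3. Pf4 (platelet factor 4) and Ppbp (pro-platelet basic protein) are made by megakaryocytes and stored in platelet granules. Cxcl16 is made as a membrane protein, is cut from the surface by the proteases Adam10 and Adam17, and is the ligand of Cxcr6. Cxcl14 is made mostly by epithelial and stromal cells, and its receptor is not settled.

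Gene positions are given on GRCm38 (mm10) from GENCODE M21, which lists all members as protein coding. On the plus strand of chromosome 5, 5 members lie within 137.4 kb: Ppbp (chr5:90768518-90770063), Pf4 (chr5:90772435-90773383), Cxcl3 (chr5:90786103-90789600), Cxcl1 (chr5:90891241-90893115) and Cxcl2 (chr5:90903871-90905938). Cxcl9 (chr5:92321347-92328079) and Cxcl10 (chr5:92346638-92348889) are neighbours on the minus strand of the same chromosome. Cxcl14 lies at chr13:56288643-56296551 and Cxcl16 at chr11:70453983-70459984, both on the minus strand. Among all 75-base words of their transcripts, Cxcl2 shared 4.57% and Cxcl3 2.78% with each other. Cxcl1, Cxcl9, Cxcl14, Pf4 and Ppbp shared none with the transcripts of another gene. Cxcl16 shared 15.4% of its words with Zmynd15 and Cxcl10 2.47% with Art3, both on the opposite strand. Whether counting used the strand is not given in the sources used here. Zmynd15 had 21 to 28 counts and Art3 0 to 4 counts per library, against at least 378 for Cxcl16 and at least 76 for Cxcl10.

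The promoters of Cxcl1, Cxcl2 and Cxcl3 are shown first because these ELR genes share a match to the NF-kB motif just before their start sites. RefSeq promoter windows (GRCm38.p6, 250 bases before to 50 after the start) were found for 8 of the 9 members, all but Cxcl16. The motif searched was GGGANNNNCC on both strands, and 20.7% of the 32851 promoter windows in the RefSeq table held it. Each sequence below is 100 bases on the plus strand, at chr5:90891125-90891224 for Cxcl1, chr5:90903772-90903871 for Cxcl2 and chr5:90785998-90786097 for Cxcl3. Capitals mark matches to this motif and to the TATA box TATAAA, which 13.6% of windows held on either strand.
Cxcl1: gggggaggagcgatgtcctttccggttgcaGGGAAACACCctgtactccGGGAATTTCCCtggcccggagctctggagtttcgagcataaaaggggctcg
Cxcl2: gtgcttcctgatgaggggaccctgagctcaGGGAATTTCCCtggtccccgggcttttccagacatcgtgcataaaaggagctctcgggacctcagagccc
Cxcl3: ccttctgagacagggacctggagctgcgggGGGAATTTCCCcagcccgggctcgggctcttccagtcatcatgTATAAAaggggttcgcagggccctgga
All 3 held the same run of capitals, which matched the motif on both strands, 71 bases before the start in Cxcl1, 97 in Cxcl2 and 73 in Cxcl3. Cxcl1 had an additional match 90 bases before its start. A match to the TATA box letters was found in Cxcl3 and not in these stretches of Cxcl1 and Cxcl2.

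The Cxcl10 window is shown because 1 library stood apart in its level. It is written 5′ to 3′ on the minus strand of chr5:92348840-92349139. Capitals mark matches to GGGANNNNCC, to the interferon response core GAAANNGAAA (held by 3.44% of windows) and to the AP-1 motif TGANTCA (7.81%).
Cxcl10: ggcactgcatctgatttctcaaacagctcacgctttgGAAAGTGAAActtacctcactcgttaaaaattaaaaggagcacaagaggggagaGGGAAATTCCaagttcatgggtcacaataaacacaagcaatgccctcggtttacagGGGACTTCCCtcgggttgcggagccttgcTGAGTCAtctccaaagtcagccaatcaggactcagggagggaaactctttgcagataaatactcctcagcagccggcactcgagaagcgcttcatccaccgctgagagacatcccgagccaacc
It held 2 NF-kB matches, 159 and 103 bases before the start, 1 interferon response core at 213 bases and 1 AP-1 match at 74 bases. Cxcl9 held 1 NF-kB match, on the other strand, and no interferon response core in its window. Cxcl14 held 1 interferon response core and no NF-kB match.

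The windows of the neighbouring genes Ppbp and Pf4 are shown because these genes gave most of the family's reads. Ppbp is at chr5:90768268-90768567 and Pf4 at chr5:90772185-90772484, both on the plus strand. Capitals mark the TATA box and AGATAA, a motif of GATA factors, which 11.2% of windows held.
Ppbp: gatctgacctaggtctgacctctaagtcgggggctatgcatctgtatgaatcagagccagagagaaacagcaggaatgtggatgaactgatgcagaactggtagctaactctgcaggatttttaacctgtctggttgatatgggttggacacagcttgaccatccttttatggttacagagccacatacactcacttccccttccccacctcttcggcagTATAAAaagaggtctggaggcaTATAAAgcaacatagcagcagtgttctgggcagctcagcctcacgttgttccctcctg
Pf4: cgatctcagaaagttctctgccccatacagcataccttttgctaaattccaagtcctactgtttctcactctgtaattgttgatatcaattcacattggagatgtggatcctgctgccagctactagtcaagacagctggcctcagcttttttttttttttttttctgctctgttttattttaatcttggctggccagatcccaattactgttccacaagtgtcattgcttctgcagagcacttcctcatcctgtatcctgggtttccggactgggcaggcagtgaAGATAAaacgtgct
Ppbp held 2 matches to the TATA box, none to AGATAA and, left in lower case, 1 AP-1 match 204 bases before the start. Pf4 held 1 match to AGATAA, 36 bases after the start, and none to the TATA box. The Cxcl10 window also held AGATAA, in lower case above, 22 bases before the start. None of the 8 windows held the TCF motif CTTTG followed by a pair of A or T bases, found in 16.9% of windows.

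Sequencing placed between 37852450 and 61845125 counts on genes per library. Parp1 fell by 1.75 on the log2 scale in PARP1CKO IMCs (standard error 0.178, quasi-likelihood adjusted p = 0.0134). In CPM, counts scaled to a common library size, it had 202 and 211 in PARP1 WT against 63.2 and 59.1 in PARP1CKO. Without any 1 of 3 libraries (either PARP1 WT library or PARP1CKO replicate 2), the adjusted p rose above 0.05. The log2 fold change of Parp1 stayed between -1.79 and -1.71 in these fits. Parp2 fell by 0.91 in PARP2CKO IMCs (standard error 0.0453, adjusted p = 0.000139), from 48.2 and 48.3 CPM in its WT to 25.7 and 25.6 CPM. The labelled myeloid identity was matched by the macrophage markers Adgre1, Csf1r and Cd68, all at 495 CPM or more in each library, and by the granulocyte markers S100a8 (314 to 454 CPM) and Csf3r (61.9 to 94.4 CPM). Defining markers of other cells were also read. Summed B cell markers were 29.6 to 43.3 CPM in the 4 libraries of the PARP1 line and 8.18 to 11.5 CPM in the 4 of the PARP2 line. T and NK cell markers summed to 4.01 to 6.88 CPM in any library, and the NK marker Ncr1 had at most 2 counts. In bulk RNA, fewer cells of a type and less RNA per cell cannot be told apart. The labels do not say whether the 2 libraries of a group came from separate animals, and p-values measure the spread between these libraries.

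Pf4 and Ppbp made up most of the family's counts. Together they held 91.4% to 95.3% of the counts of the 9 members in each library. Which cells this RNA came from was not tested. Per kilobase of exon, Pf4 averaged 189 CPM (range 153 to 223 over the 8 libraries) and Ppbp 106 CPM (84.2 to 128), so their ranges did not overlap. Cxcl16 followed at 3.95 CPM per kb, Cxcl10 at 1.54, Cxcl2 at 1.37, Cxcl14 at 0.524, Cxcl3 at 0.214, Cxcl1 at 0.207 and Cxcl9 at 0.0208. From Cxcl16 down to Cxcl1, the range of each member over the libraries overlapped the range of the next in this order. Those of Ppbp and Cxcl16, and of Cxcl1 and Cxcl9, did not overlap.

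**Figure D1:**
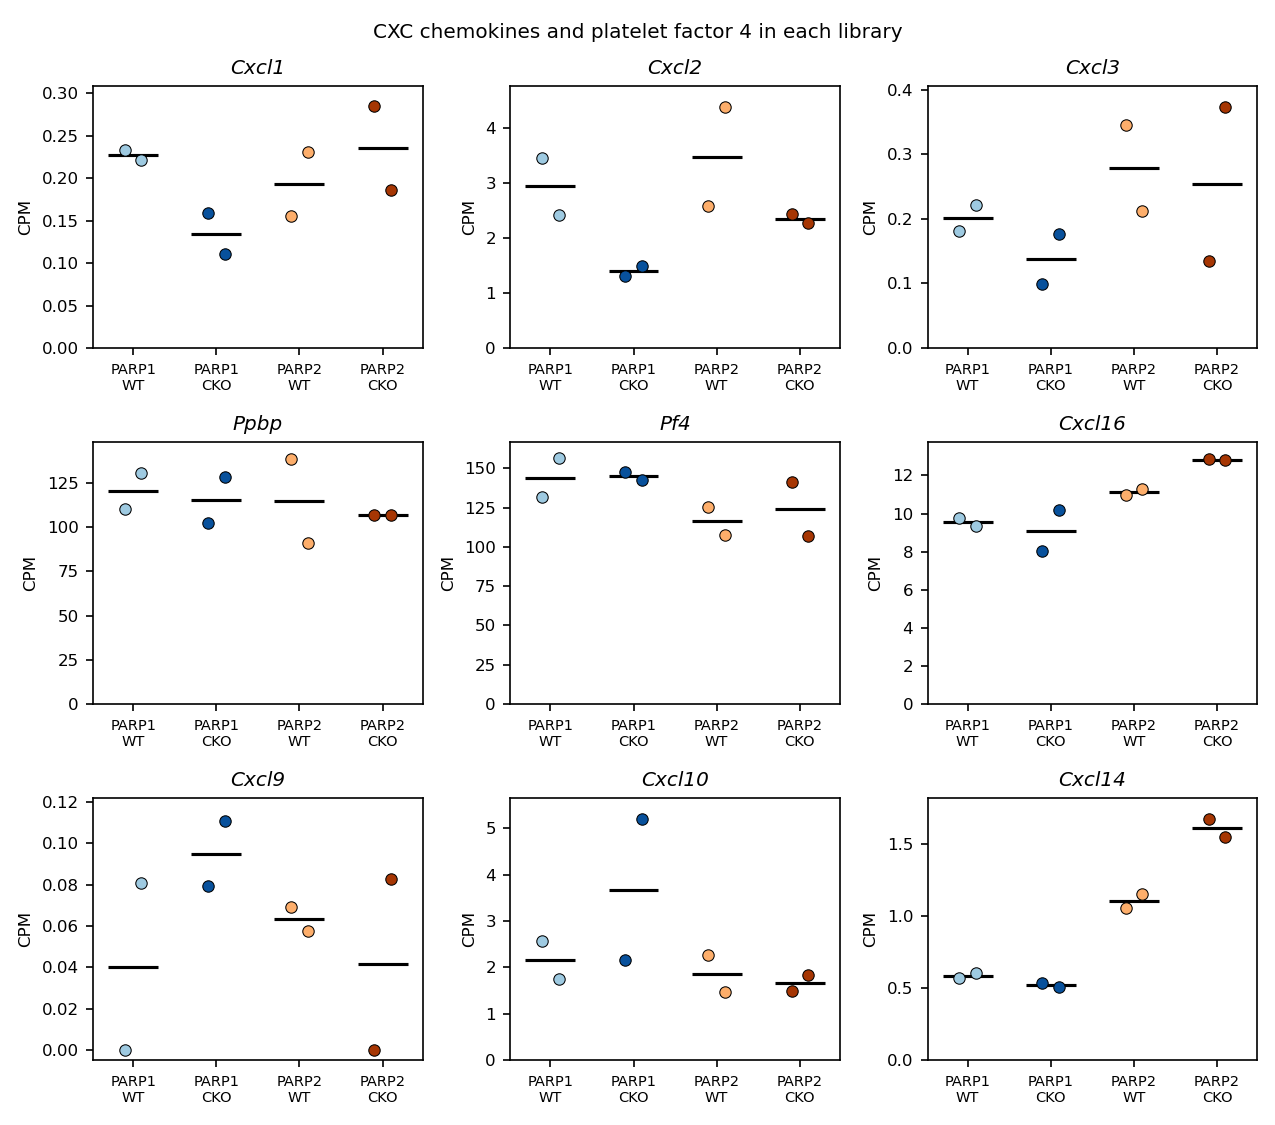
Levels (CPM, linear axes) of the 9 genes in each of the 8 libraries, with points for libraries and bars for the mean of 2. Cxcl2 was lowest in the 2 PARP1CKO libraries, Cxcl14 was highest in the 2 PARP2CKO libraries, and Cxcl10 stood at 5.20 CPM in PARP1CKO replicate 2.

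No member was called (adjusted p under 0.05) in any of the 4 comparisons, which were tested by the quasi-likelihood method of edgeR. The filter on low counts kept 8 of the 9 members, all but Cxcl9. In PARP1CKO against PARP1 WT, 0 of 8 members and 0.106% of the 13197 genes tested were called. In PARP2CKO against PARP2 WT, the shares were 0 of 8 and 0.053%. For the difference between these effects they were 0 of 8 and 0.0152%, and for PARP2 WT against PARP1 WT 0 of 8 and 3.16%. At an unadjusted p under 0.05, 1 member was past the threshold in each of the first 3 comparisons and 2 in the last. Across all tested genes 11.3%, 4.83%, 7.69% and 18.9% were past it. DESeq2 called no member either, but it gave no adjusted p for Cxcl14 in PARP1CKO. It also gave none for Cxcl1 and Cxcl3 in PARP1CKO, for the difference between the effects and between the WT groups. The likelihood-ratio test of edgeR called Cxcl2 in PARP1CKO and Cxcl14 between the WT groups. With no filter on low counts, the quasi-likelihood test called Cxcl2 and Cxcl14 in these comparisons.

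**Figure D2:**
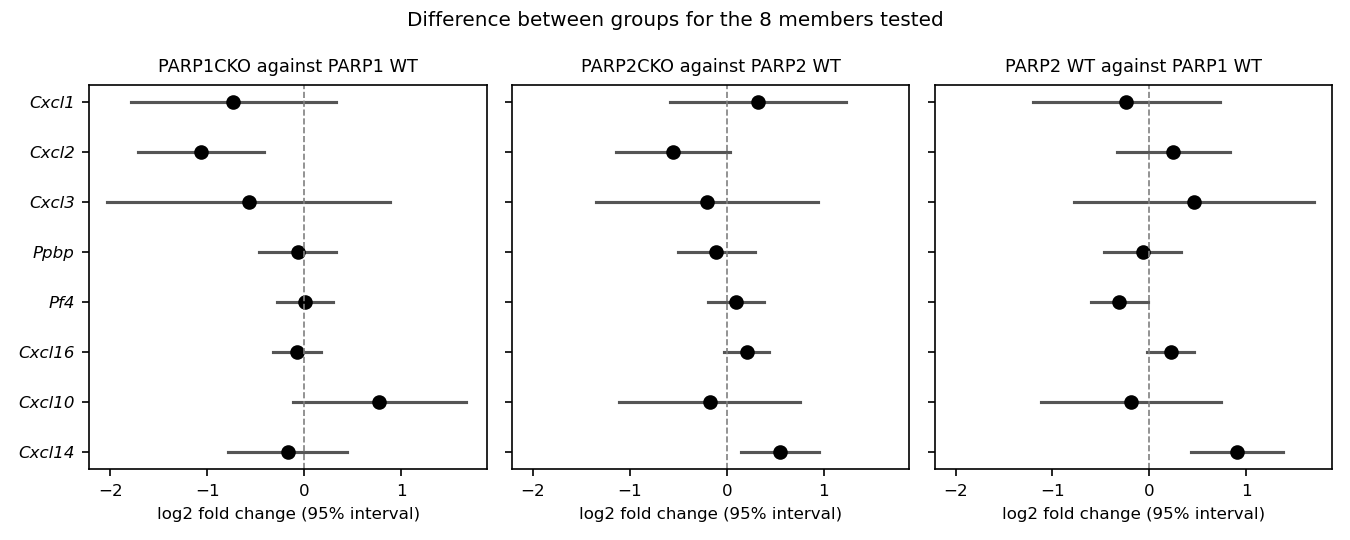
Log2 fold changes (points) with 95% intervals (lines) of the 8 members tested, in 3 comparisons of 2 libraries against 2. Intervals that leave out 0 belong to Cxcl2 in PARP1CKO, Cxcl14 in PARP2CKO, and Cxcl14 and Pf4 between the WT groups, and none passed adjustment over all genes.

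Cxcl2, which encodes a neutrophil attractant of activated macrophages, had the lowest levels in PARP1CKO IMCs. The PARP1 WT libraries had 134 and 120 counts (3.46 and 2.42 CPM), and the PARP1CKO libraries 66 and 67 (1.31 and 1.48 CPM). Both PARP1CKO libraries lay below all 6 others. The log2 fold change was -1.07 (standard error 0.286, 95% interval -1.71 to -0.42), with an unadjusted p of 0.00483 and an adjusted p of 0.271 from the quasi-likelihood test. The adjusted p was 0.033 with the likelihood-ratio test and 0.0492 without the filter, and over all alternatives it lay between 0.033 and 0.497. Leaving out a single library gave log2 fold changes from -1.32 to -0.80.

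In the PARP2 line, the WT libraries had 149 and 228 counts of Cxcl2 (2.58 and 4.38 CPM), and the PARP2CKO libraries 145 and 110 (2.43 and 2.28 CPM). Both PARP2CKO libraries were again below both WT libraries, but the gap to the lower of them was small. The log2 fold change was -0.56 (standard error 0.258, 95% interval -1.14 to 0.03), with an unadjusted p of 0.0599 and an adjusted p of 0.954. Without PARP2 WT replicate 2, the library with the highest Cxcl2, the log2 fold change was -0.13. Without PARP2 WT replicate 1 it was -0.89. The PARP2CKO effect minus the PARP1CKO effect was 0.51 (95% interval -0.36 to 1.38, adjusted p = 0.777), and it was 0.17 without PARP2 WT replicate 1 and 0.94 without PARP2 WT replicate 2.

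Cxcl1 and Cxcl3, close relatives of Cxcl2 that bind the same receptor, were near the limit of detection. For Cxcl1, the PARP1 WT libraries had 9 and 11 counts, PARP1CKO 8 and 5, PARP2 WT 9 and 12, and PARP2CKO 17 and 9. Pooled over a group, the 13 counts of PARP1CKO gave 0.136 CPM, with an exact Poisson 95% interval of 0.0724 to 0.232 that covers counting error only. The 20 counts of PARP1 WT gave 0.226 CPM (0.138 to 0.350), and the intervals overlap. Its log2 fold change in PARP1CKO was -0.73 (95% interval -1.78 to 0.33, adjusted p = 0.580). In PARP2CKO it was 0.32 (-0.59 to 1.23, adjusted p = 0.977). The effects of the 2 deletions on Cxcl1 differed by 1.05 (-0.35 to 2.44, adjusted p = 0.726).

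For Cxcl3, the PARP1 WT libraries had 7 and 11 counts, PARP1CKO 5 and 8, PARP2 WT 20 and 11, and PARP2CKO 8 and 18. Its log2 fold change in PARP1CKO was -0.57 (95% interval -2.03 to 0.89, adjusted p = 0.763) and in PARP2CKO -0.20 (-1.35 to 0.94, adjusted p = 0.983). The PARP1CKO value was -1.02 without PARP1CKO replicate 2 and -0.20 without PARP1CKO replicate 1. In CPM, both PARP1CKO libraries of Cxcl1, Cxcl2 and Cxcl3 lay below both PARP1 WT libraries, as did those of Cxcl14. The raw counts of Cxcl3 and Cxcl14 overlapped between these groups. For Cxcl3 the gap was between 0.177 CPM in PARP1CKO replicate 2 and 0.181 CPM in PARP1 WT replicate 1. Groups without overlap in CPM were found for 4 of the 8 members tested in PARP1CKO, and for 41.2% of all tested genes. In PARP2CKO 3 of 8 members did not overlap in CPM, Cxcl2 below and Cxcl14 and Cxcl16 above WT, against 37.2% of all genes. The members' shares are near these backgrounds.

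The NF-kB and inflammatory genes that accompany ELR chemokines in macrophages were read from a list of 18, of which 17 passed the filter. None was called in any comparison, and the median log2 fold change was -0.05 in PARP1CKO and -0.02 in PARP2CKO, beside 0.0059 and -0.0014 over all genes. Nfkb1, a subunit of NF-kB, and Tlr4, the receptor for bacterial endotoxin, had log2 fold changes of -0.0047 (standard error 0.0444) and -0.03 (standard error 0.0669) in PARP1CKO. Zfp36, which encodes a protein that destabilizes inflammatory mRNAs, was the most abundant of the list. Its levels were 211 and 204 CPM without and 174 and 148 CPM with the PARP1 deletion, a log2 fold change of -0.37 (standard error 0.0793, unadjusted p = 0.00131, adjusted p = 0.176).

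Summed over the list, PARP1 WT had 897 to 909 CPM, PARP1CKO 845 to 854, PARP2 WT 888 to 946 and PARP2CKO 899 to 901. The log2 level of Cxcl2 followed this sum across the 8 libraries, with Pearson's r = 0.951 (exact permutation p = 0.00126, two-sided, 0.00169 after adjustment over 4 relations) and Spearman's rho = 0.810 (exact permutation p = 0.0218, adjusted 0.0290). Without the 2 libraries farthest from the median sum, r was 0.922. Within groups, r of the deviations from the group means was 0.857. Without Zfp36 in the sum, r was 0.659. These relations were chosen after the values had been seen, the permutations treat libraries of 4 groups as exchangeable, and the part of the list in the level of Cxcl2 was not tested.

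**Figure D3:**
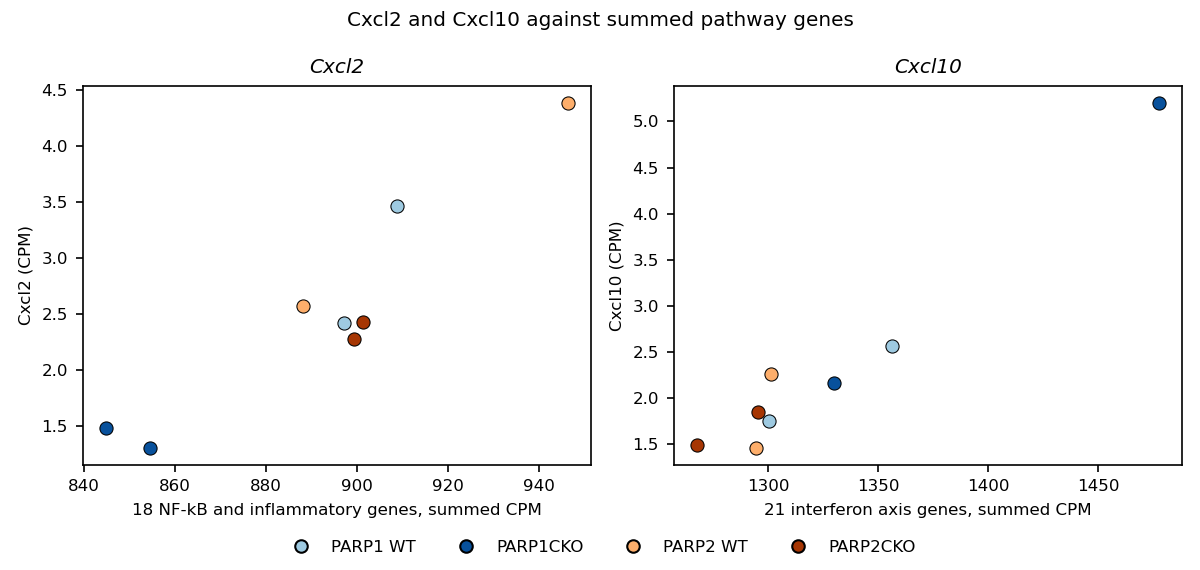
Cxcl2 (left) and Cxcl10 (right) in CPM against the summed CPM of 18 NF-kB and inflammatory genes and of 21 interferon axis genes, 1 point a library and colour for the group. The 2 PARP1CKO libraries were lowest in both measures on the left, and PARP1CKO replicate 2 was highest in both on the right. The axes do not start at 0.

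Cxcl10 was high in a single library. The PARP1 WT libraries had 99 and 87 counts (2.56 and 1.75 CPM), PARP1CKO 109 and 235 (2.16 and 5.20 CPM), PARP2 WT 131 and 76 (2.26 and 1.46 CPM), and PARP2CKO 89 in each (1.49 and 1.84 CPM). PARP1CKO replicate 2 lay above the rest, while PARP1CKO replicate 1 lay between the PARP1 WT libraries, so the groups overlapped. The log2 fold change in PARP1CKO was 0.78 (standard error 0.393, 95% interval -0.12 to 1.67, adjusted p = 0.486), and without replicate 2 of PARP1CKO it was 0.02. In PARP2CKO it was -0.17 (95% interval -1.11 to 0.76, adjusted p = 0.980).

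Of 21 genes of the interferon axis, from receptors to interferon-induced genes, 19 passed the filter and none was called in any comparison. In PARP1CKO 4 of the 19 were higher and 0 lower at an unadjusted p under 0.05, which 11.3% of all tested genes passed, and their median log2 fold change was 0.13 beside 0.0059 over all genes. In PARP2CKO 0 of the 19 passed it, beside 4.83% of all tested genes, and their median was -0.09 beside -0.0014. The most abundant were Jak1 (mean 255 CPM), Ifnar1 (216 CPM) and Irf8 (138 CPM), which encode a kinase of interferon receptors, a receptor chain and a transcription factor of monocytes. Ifnar1 had a log2 fold change of 0.13 in PARP1CKO (standard error 0.0390, adjusted p = 0.287).

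The summed list was 1478 CPM in PARP1CKO replicate 2 and 1267 to 1356 CPM in the other 7 libraries. Cxcl10 followed the sum, with Pearson's r = 0.964 (exact permutation p = 0.00104, adjusted 0.00169) and Spearman's rho = 0.929 (exact permutation p = 0.00223, adjusted 0.00893). Without PARP1CKO replicate 2, r was 0.835 (exact permutation p = 0.0173). Without the 2 farthest libraries, it was 0.713. In all 4 groups, the library with the higher sum had the higher Cxcl10. PARP1CKO replicate 2 also had the highest summed markers of B cells (43.3 CPM), T and NK cells (6.88 CPM) and endothelium (31.5 CPM). In PARP1CKO replicate 1 these sums were 31.0, 5.07 and 23.2 CPM. The part of these cells in the level of Cxcl10 was not tested.

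Cxcl9, the companion of Cxcl10 that depends most on interferon-gamma, was hardly detected. The PARP1 WT libraries had 0 and 4 counts, PARP1CKO 4 and 5, PARP2 WT 4 and 3, and PARP2CKO 0 and 4. A count of 0 allows up to 3 counts, which is 0.0775 CPM in PARP1 WT replicate 1 and 0.0503 CPM in PARP2CKO replicate 1. Over all libraries, its 24 counts gave 0.0597 CPM (exact Poisson 95% interval 0.0383 to 0.0889). Without the filter on low counts, the quasi-likelihood test gave a log2 fold change of 1.03 in PARP1CKO (unadjusted p = 0.377). It gave -0.73 in PARP2CKO (0.543), -1.76 for the difference between the effects (0.297) and 0.48 between the WT groups (0.690). None was called, and at counts this low a difference between groups could be missed.

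Cxcl14 had its highest levels in PARP2CKO IMCs and its lowest in the PARP1 line. It had 22 and 30 counts in PARP1 WT (0.569 and 0.605 CPM) and 27 and 23 in PARP1CKO (0.535 and 0.509 CPM). In the PARP2 line it had 61 and 60 counts in WT (1.05 and 1.15 CPM) and 100 and 75 in PARP2CKO (1.68 and 1.55 CPM). All 4 libraries of the PARP2 line lay above all 4 of the PARP1 line, and both PARP2CKO libraries above both PARP2 WT libraries. The log2 fold change in PARP2CKO was 0.55 (standard error 0.177, 95% interval 0.15 to 0.95), with an unadjusted p of 0.0128 and an adjusted p of 0.888. In PARP1CKO it was -0.17 (95% interval -0.79 to 0.45, adjusted p = 0.843). The effects of the 2 deletions differed by 0.72 (95% interval 0.05 to 1.39, unadjusted p = 0.0372, adjusted p = 0.631).

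Between the WT groups, Cxcl14 was 0.90 higher in PARP2 WT on the log2 scale (standard error 0.208, 95% interval 0.43 to 1.38, adjusted p = 0.0548). The adjusted p was 0.0132 with the likelihood-ratio test, 0.0381 without the filter and 0.300 with DESeq2. Groups without overlap between PARP1 WT and PARP2 WT were found for 3 of 8 members and for 51.9% of all tested genes. The genetic line and any difference in origin, time or culture of the mice cannot be told apart in this comparison.

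Markers of other cell types were set beside Cxcl14. The 11 stroma and fibroblast genes, cells known to make Cxcl14, summed to 6.18 to 9.75 CPM in the PARP1 line and 9.99 to 13.6 CPM in the PARP2 line. Fn1, fibronectin, which macrophages also make, was the 1 gene of this list called between the WT groups (log2 fold change 0.78, standard error 0.105, adjusted p = 0.00703). Without Fn1 the sums were 2.04 to 4.94 CPM in the PARP1 line and 2.54 to 5.67 CPM in the PARP2 line, and the ranges overlapped. Of the 8 stroma genes tested between the WT groups, 2 were higher and 0 lower at an unadjusted p under 0.05, which 18.9% of all tested genes passed, and their median log2 fold change was 0.31 beside 0.0013 over all genes. The median of the stroma genes was -0.55 in PARP1CKO, -0.041 in PARP2CKO and 0.47 for the difference between these effects, beside 0.0059, -0.0014 and -0.0070 over all genes. For that difference, 1 of 8 was higher and 0 lower at an unadjusted p under 0.05, beside 7.69% of all tested genes. Between the WT groups, the collagen gene Col1a1 had a log2 fold change of -0.35 (adjusted p = 0.653). The collagen gene Col3a1 had one of 1.85 (standard error 1.02, adjusted p = 0.373), with 52 and 3 counts in the PARP2 WT libraries. Pdgfra had at most 8 counts in a library. Of 7 tested B cell genes, 6 were called lower in PARP2 WT than in PARP1 WT, beside 3.16% of all tested genes called in either direction, among them Cd79a, a part of the B cell receptor, with a log2 fold change of -1.79 (adjusted p = 0.00529). The part of these cells in the level of Cxcl14 was not tested.

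**Figure D4:**
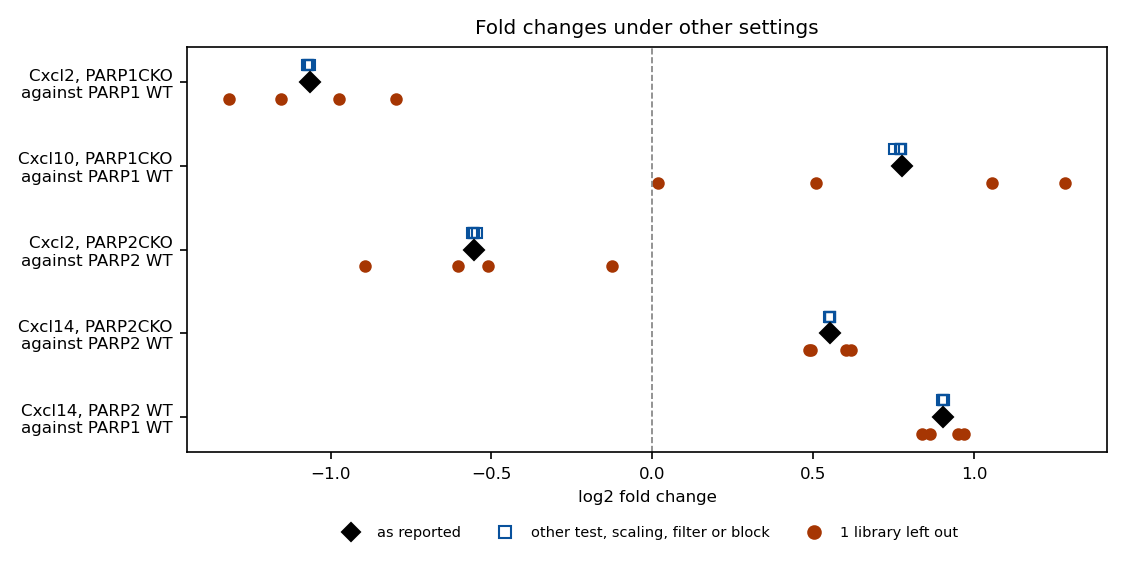
Log2 fold changes of Cxcl2, Cxcl10 and Cxcl14 as reported (diamonds), under another test, scaling, filter or block (squares) and with 1 library left out (circles). Cxcl10 in PARP1CKO ranged from 0.02 to 1.28 with 1 library left out, and Cxcl14 in PARP2CKO from 0.49 to 0.62.

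Cxcl16, the membrane-bound chemokine and scavenger receptor of macrophages, was the most abundant member after Pf4 and Ppbp. The PARP1 WT libraries had 378 and 463 counts (9.77 and 9.33 CPM), PARP1CKO 404 and 460 (8.01 and 10.2 CPM), PARP2 WT 635 and 587 (11.0 and 11.3 CPM), and PARP2CKO 767 and 618 (12.9 and 12.8 CPM). In CPM, the PARP2CKO libraries were the highest of the 8 and close to each other. The 12 macrophage and monocyte genes summed to 5121 to 5393 CPM in PARP1 WT, 5258 to 5390 in PARP1CKO, 5498 to 5722 in PARP2 WT and 5751 to 5979 in PARP2CKO, so this sum was also highest in PARP2CKO. In PARP2CKO, 0 of the 12 were called, and 3 were higher and 1 lower at an unadjusted p under 0.05, beside 4.83% of all tested genes. Their median log2 fold change there was 0.013 beside -0.0014 over all genes, and that of Adgre1, the macrophage marker F4/80, was 0.21 (unadjusted p = 0.00340, adjusted p = 0.704). The part of these markers in the level of Cxcl16 was not tested. The log2 fold change of Cxcl16 in PARP2CKO was 0.20 (standard error 0.103, 95% interval -0.03 to 0.44, adjusted p = 0.954), and it lay between 0.19 and 0.23 with any 1 library left out. In PARP1CKO it was -0.07 (95% interval -0.32 to 0.17, adjusted p = 0.832). Between the WT groups it was 0.22 (95% interval -0.02 to 0.46, adjusted p = 0.303).

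The genes that release Cxcl16 from the surface were abundant and none was called. Adam10 averaged 303 CPM, Adam17 199 CPM and Rhbdf2, which carries Adam17 to the surface, 66.5 CPM. Their median log2 fold change was 0.01 in PARP1CKO and 0.04 in PARP2CKO.

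Ppbp, the precursor of a neutrophil attractant released by platelets, overlapped between groups in each comparison. PARP1 WT libraries were at 110 and 131 CPM, PARP1CKO at 102 and 128, PARP2 WT at 139 and 91.2, and both PARP2CKO at 107. The PARP2 WT libraries held both the highest and the lowest value. Log2 fold changes were -0.07 in PARP1CKO (95% interval -0.47 to 0.33, adjusted p = 0.914), -0.11 in PARP2CKO (-0.51 to 0.29, adjusted p = 0.977) and -0.07 between the WT groups (-0.47 to 0.33, adjusted p = 0.869).

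Pf4, a heparin-binding chemokine without the ELR residues, was at 132 and 156 CPM in the PARP1 WT libraries and at 147 and 143 in PARP1CKO. PARP2 WT libraries were at 125 and 107 CPM, and PARP2CKO at 141 and 107. The log2 fold change was 0.01 in PARP1CKO (95% interval -0.28 to 0.30, adjusted p = 0.985) and 0.10 in PARP2CKO (-0.19 to 0.39, adjusted p = 0.977). Between the WT groups it was -0.31 (standard error 0.128, 95% interval -0.60 to -0.02, unadjusted p = 0.0399, adjusted p = 0.238), with both PARP2 WT libraries below both PARP1 WT libraries. With 1 library left out it ranged from -0.43 without PARP1 WT replicate 1 to -0.18 without PARP1 WT replicate 2 (adjusted p = 0.568). The ratio of Pf4 to Ppbp counts ranged from 0.903 in PARP2 WT replicate 1 to 1.44 in PARP1CKO replicate 1.

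All 18 megakaryocyte and platelet genes passed the filter. Defining markers were present in every library, Itga2b at 59.2 to 83.8 CPM, Gp1ba at 16.5 to 26.9 CPM and Gp9 at 6.09 to 10.3 CPM. None of the list was called in any comparison, and the median log2 fold change was -0.02 in PARP1CKO, -0.18 in PARP2CKO and -0.06 between the WT groups, beside 0.0059, -0.0014 and 0.0013 over all genes. Summed over the list, PARP1 WT libraries had 494 and 591 CPM, PARP1CKO 463 and 578, PARP2 WT 574 and 415, and PARP2CKO 457 and 451.

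The log2 level of Ppbp followed that sum over the 8 libraries, with Pearson's r = 0.965 (exact permutation p = 0.00112, adjusted 0.00169) and Spearman's rho = 0.833 (exact permutation p = 0.0154, adjusted 0.0290). Without the 2 farthest libraries, r was 0.973, and over deviations from the group means it was 0.990. For Pf4, r was 0.581 (exact permutation p = 0.137, adjusted 0.137) and rho 0.690 (exact permutation p = 0.0694, adjusted 0.0694), and r was 0.298 without the 2 farthest libraries. Over deviations from the group means, r for Pf4 was 0.492. The 2 deviations of a group mirror each other, here as for Cxcl2, so such values rest on 1 difference in each of 4 groups. Whether the relations of Ppbp and Pf4 differ from each other was not tested.

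**Figure D5:**
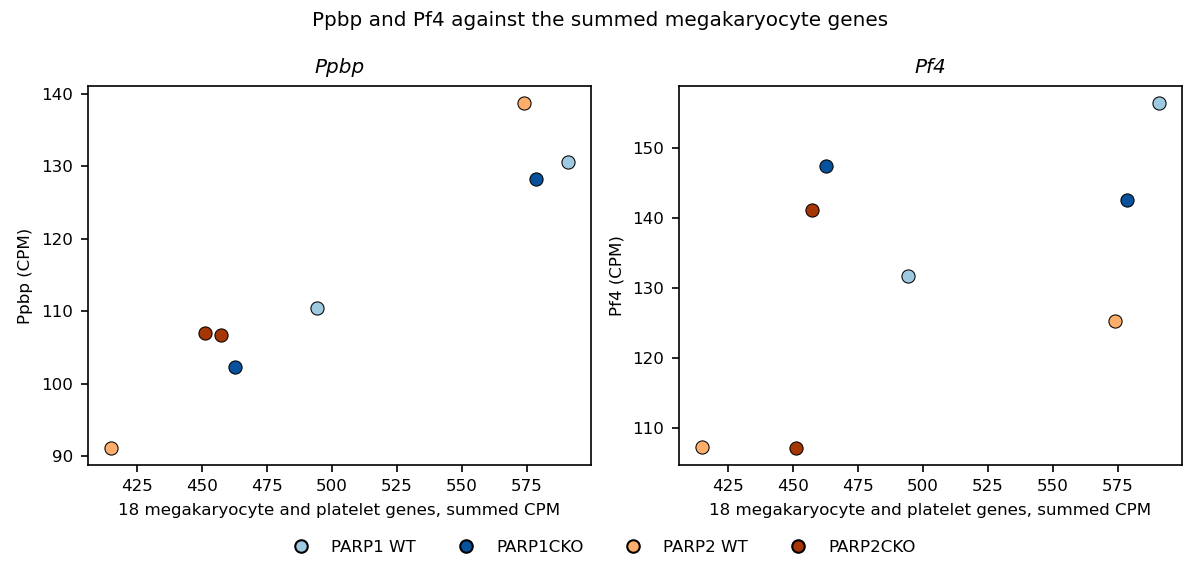
Ppbp (left) and Pf4 (right) in CPM against the summed CPM of 18 megakaryocyte and platelet genes, 1 point a library and colour for the group. In 3 of the 4 groups the library with the higher sum had the higher Ppbp, and the 2 PARP2CKO libraries were nearly equal. For Pf4 the library with the higher sum was also the higher in 3 of the 4 groups, all but PARP1CKO. The axes do not start at 0.

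Cxcl1, Cxcl3, Cxcl9 and Cxcl14 averaged below 1 CPM, and no genes like them were sought. For the remaining members, the genes most like each across the 8 libraries were taken from 11446 other tested genes averaging at least 1 CPM. For Ppbp these were Itgb3 (Pearson's r = 0.975), a subunit of the platelet fibrinogen receptor, and Ltbp1 (0.972), a binding protein of latent TGF-beta. Itgb3, at a mean of 142 CPM, is 1 of the 18 genes in the megakaryocyte and platelet sum, so its likeness is not separate from that relation. The relation without Itgb3 was not tested. For Pf4 they were Reck (0.980), which encodes a membrane inhibitor of metalloproteinases, and Elf4 (0.955), a transcription factor. Cxcl2 was most like Rbm44 (0.947) and Ears2 (0.932), Cxcl10 most like Ppp1r11 (0.969) and Fpgt (0.964), and Cxcl16 most like Dstn (0.975) and Rwdd4a (0.974). These are the highest of many correlations over 8 points that share 4 groups, and they are given as a description.

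Other ligands and the receptors of the family were read alongside. Of 6 further CXC ligands, Cxcl5 (mean 1.47 CPM) and Cxcl12 (0.452 CPM) passed the filter, and the remaining 4 had at most 3 counts in any library. Cxcl5 and Cxcl12 were not called in any comparison. Between the WT groups, Cxcl12 had a log2 fold change of -1.12 (standard error 0.345, quasi-likelihood unadjusted p = 0.0104, adjusted p = 0.131), with at most 35 counts in a library. That of Cxcl5 was 0.31 (adjusted p = 0.535). Of 9 receptor genes, 7 passed, and none was called in any comparison. Ccr1, which the list included although it is a receptor of the CC chemokine CCL3, averaged 52.0 CPM. Cxcr4, the receptor of Cxcl12, averaged 48.9 CPM. Cxcr2, the receptor of the ELR members, had 19.3 to 24.6 CPM per library in the PARP1 line and 10.5 to 16.4 CPM in the PARP2 line. Its log2 fold change was 0.14 in PARP1CKO (standard error 0.121) and -0.49 in PARP2CKO (standard error 0.126, unadjusted p = 0.00377, adjusted p = 0.721). The neutrophil genes Retnlg and Mmp9 were lower in PARP2 WT than in PARP1 WT (log2 fold changes -0.79 and -0.63, adjusted p = 0.00924 and 0.0112). Fcnb and Elane, genes of granulocyte precursors, were higher there (0.83 and 0.42, adjusted p = 0.00703 and 0.0269), as was the macrophage gene Mertk (0.76, adjusted p = 0.00529). None of these was called in either deletion. In PARP2CKO, Retnlg had a log2 fold change of -0.61 (standard error 0.119, unadjusted p = 0.000619, adjusted p = 0.371) and Mmp9 of -0.43 (standard error 0.0971, unadjusted p = 0.00183, adjusted p = 0.557), beside the -0.49 of Cxcr2. The 13 neutrophil genes tested had a median of -0.16 there, beside -0.0014 over all genes, and their part in the level of Cxcr2 was not tested.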

How the data were processed

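Total RNA of IMCs was sequenced in 8 libraries, 2 per group, from 4 µg of RNA with a stranded total RNA kit and single-end reads. The authors trimmed reads, mapped them to mm10 with TopHat2 2.0.12, marked duplicates with Picard 1.127 and deposited raw counts per gene from Subread featureCounts. Versions are from the submitters' processing notes. The annotation, the strand setting and the use of marked duplicates are not given in the sources used here. All 8 columns were mapped to labelled libraries.

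Counts were tested with edgeR 4.0.16 in R 4.3.3. The quasi-likelihood test was fitted to all 8 libraries with 4 group means, TMM factors (0.965 to 1.03) and filterByExpr, which kept 13197 of 24062 genes. The p-values were adjusted by Benjamini-Hochberg over all of them, with a threshold of 0.05, and standard errors and 95% intervals were derived from the test's p-value and degrees of freedom. CPM used TMM-scaled library sizes, and levels per kb used the joined exons of GENCODE M21 protein-coding transcripts, which may differ from the authors' exons. The 2 libraries of each group differed by more than sampling noise (chi-square per gene 8.56 to 12.9), so none was merged with another as a repeat of the same library. This does not show that they came from separate animals.

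The genes named are the 9 members and, from each list, the genes called in any comparison, the 3 most abundant and defining markers at 3 counts or fewer in every library. Other defining markers were added to give levels, chosen after their values were seen. The members and lists were chosen with earlier results of these data known. Adgre1 was found under an older symbol, and Ly6g was not analysed here. Some marker genes are not reported here. Correlations used log2 CPM and exact permutation tests, and likeness used a prior count of 2. The alternatives were the likelihood-ratio test, DESeq2 1.42.0, its size factors, no filter on low counts, only the 4 libraries compared, a replicate block and leaving out each library. The tests were first run on simulated counts with known changes. Figures were drawn with matplotlib 3.10.9.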

Additional observations from a re-analysis of the deposited data

Results flagged for a closer look

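Cxcl14 lay on opposite sides of WT in the 2 deletions. In CPM, both PARP1CKO libraries were below both PARP1 WT libraries, and both PARP2CKO libraries were above both PARP2 WT libraries. The raw counts of PARP1CKO and PARP1 WT overlapped. The difference between the effects was 0.72 on the log2 scale, with an adjusted p of 0.631 from edgeR's quasi-likelihood test, and so was not called. The PARP1CKO side of it was a log2 fold change of -0.17 (95% interval -0.79 to 0.45, adjusted p = 0.843), and groups without overlap were found for 41.2% of all tested genes in PARP1CKO and 37.2% in PARP2CKO. The 8 stroma and fibroblast genes tested had a median of 0.47 for the same difference, and their part in it was not tested. The fold changes of Cxcl1, Cxcl10 and Cxcl16 also had opposite signs in the 2 deletions. Their effects differed by 1.05, -0.95 and 0.28 (quasi-likelihood adjusted p = 0.726, 0.734 and 0.702). None of these was called, and each overlapped between groups in at least 1 deletion.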

How the results depend on the processing

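With 2 libraries a group and 5 to 20 counts per library, Cxcl1 and Cxcl3 allowed only wide intervals, and Cxcl9, with 0 to 5 counts, did not pass the filter. The number of genes called depended on the test. The likelihood-ratio test called 146 genes in PARP1CKO, 39 in PARP2CKO, 72 for the difference between the effects and 910 between the WT groups, DESeq2 86, 27, 45 and 551, and the quasi-likelihood test without the filter 101, 26, 61 and 872, beside 14, 7, 2 and 417. Under the likelihood-ratio test and without the filter, 1 member was called in PARP1CKO (Cxcl2) and 1 between the WT groups (Cxcl14). The cause was not tested. With 1 library left out, no member was called, and the genes called numbered 1 to 34 in PARP1CKO (1 without PARP1 WT replicate 2, 34 without PARP1CKO replicate 1), 6 to 19 in PARP2CKO (19 without PARP2 WT replicate 1), 1 to 16 for the difference and 85 to 319 between the WT groups (85 without PARP1 WT replicate 1). A lone library left in a group was taken to vary like the others.

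Fold changes that changed sign, all with 1 library left out, were small or of low counts. In PARP1CKO, Pf4 ranged from -0.11 to 0.14, Ppbp from -0.24 to 0.088 and Cxcl16 from -0.25 to 0.092. In PARP2CKO, Cxcl1 ranged from -0.040 to 0.62, Cxcl3 from -1.05 to 0.40, Cxcl10 from -0.45 to 0.18, Ppbp from -0.38 to 0.23 and Pf4 from -0.12 to 0.28. For the difference between the effects, Cxcl3 ranged from -0.48 to 0.97, Ppbp from -0.31 to 0.29 and Pf4 from -0.13 to 0.27. Between the WT groups, Cxcl1 ranged from -0.54 to 0.026, Cxcl2 from -0.18 to 0.59, Cxcl10 from -0.55 to 0.094 and Ppbp from -0.40 to 0.20. With 1 library left out, an alternative chosen after seeing the data, r with the summed list was 0.952 to 0.974 for Ppbp, 0.387 to 0.714 for Pf4, 0.919 to 0.964 for Cxcl2 and 0.835 to 0.986 for Cxcl10. For Cxcl2 it was 0.659 without the gene Zfp36.

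Whether libraries with the same replicate number were paired is not given in the sources used here. With 1 replicate difference a group, a correlation of these differences over genes cannot decide it. The correlation of the replicate 1 minus replicate 2 differences was -0.13 between PARP1 WT and PARP1CKO and 0.15 between PARP2 WT and PARP2CKO. With a replicate block common to both lines, which does not model pairs within a line, 0 members were called. The genes called then numbered 14, 6, 3 and 315.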
